A study of Mus musculus with 18 samples.

Results

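The comparison described here sets intestine of male C57BL/6 mice that ate St. John's wort (SJW) in their diet against intestine of male C57BL/6 mice fed a control diet, both after a saline injection. Its members were chosen by their labels: 3 arrays of the SJW diet with saline and 3 arrays of the control diet with saline, 6 of 18 arrays in all. The other arrays held 3 samples each of SJW diet and control diet after azoxymethane (AOM, a carcinogen) from non-tumor area, and 3 samples each of SJW diet and control diet from AOM tumors. Neither saline group received AOM, so both lack the carcinogen and the tumors that it gives. The study calls the 3 samples of a group biological replicates. The sources used here do not give the age of the mice, the dose or length of the diet, or whether a sample is 1 animal or a pool.

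Each array measured sample RNA in Cy5 (red) against one commercial pool of RNA from several mouse organs in Cy3 (green), with no intestine in the pool and no dye swap. A value below is the log2 of red over green of one gene on one array, after background correction and loess normalization within the array. A difference is SJW minus control on that log2 scale, so a difference of 1 is a doubling, and levels of different genes are not compared. Values of the 3 SJW arrays and of the 3 control arrays are given in the order of replicates 1, 2 and 3. Each of 3 slides held 1 array of each saline group under the same replicate number, so each slide also gives its own difference.

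SJW is a herbal antidepressant whose constituent hyperforin is a ligand of the pregnane X receptor (PXR, gene Nr1i2), a nuclear receptor of liver and gut. PXR and its relative the constitutive androstane receptor (CAR, gene Nr1i3) switch on cytochromes P450 that oxidise drugs, transferases that attach glucuronic acid or sulfate to them, and pumps that move them out of the cell. In the intestine this set limits how much of a swallowed drug reaches the blood, and its induction is known for SJW as a cause of drug interactions.

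With all 18 arrays in one limma fit, 0 of 26067 genes differed between SJW and control after saline at an adjusted p under 0.05, and the lowest adjusted p was 0.0853. At an unadjusted p under 0.05, 1913 genes had a higher mean in SJW (7.34% of those tested) and 873 a lower one (3.35%). The values of the 2 groups did not overlap for 2151 genes with SJW above control (8.25%) and for 1529 with SJW below (5.87%). Over all genes the median difference was 0.01. An exact permutation test of 3 arrays against 3 cannot give a two-sided p below 0.1, so single genes have no such test here. Because no gene passed, differences below are given as values unless a sentence says that a gene passed with the slide as a block.

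Arrays of one slide deviated together from their group means, with correlations over genes of 0.169, 0.411 and 0.364 for slides 1, 2 and 3. With the slide as a block in the same limma fit, 71 genes passed at an adjusted p under 0.05 (0.272%), 69 of them higher in SJW (0.265%) and 2 lower (0.00767%), and the smallest adjusted p was 0.0457. The blocked count was 0 with the 6 saline arrays alone, with the 12 non-tumor arrays alone, and after leaving out SJW replicate 2, SJW replicate 3, control replicate 1 or control replicate 2. It was 162 without SJW replicate 1 and 41 without control replicate 3. Named genes that rose with the slide as a block included the aldo-keto reductases Akr1b7 and Akr1b8 and the efflux pump gene Abcb1a. The cytochrome P450 gene Cyp3a41a and the fatty acid elongase Elovl6 also rose. They were picked from 36 genes with a symbol that rose. Among those 36 the largest differences were 2.88 (Olfr1445, an odorant receptor), 2.86 (Prr11) and 2.85 (Dgki). Of the 71, 8 had SJW replicate 1 under 2.5 with SJW replicates 2 and 3 over 3. The 2 that fell were Tppp3, a tubulin-binding protein, and Plekho2.

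Several arrays stood apart before any result was drawn. Median red brightness was 182 to 290 on the SJW arrays and 155.5 to 375 on the control arrays, and red signal was well above background for 72.4% to 83.5% of probes. Median green brightness was above 500 on SJW replicates 1 and 3 and on control replicates 2 and 3, and 218 to 220 on the other 2 arrays. Across genes, arrays of one group correlated at 0.903 to 0.954 and arrays of different groups at 0.855 to 0.975. Control replicate 2 had the narrowest spread of log2 ratios over genes. Its interquartile range was 0.527, against 0.945 to 1.26 on the other saline arrays. Some results below are also given without this array, and its part in the others is not given. The cause of its narrow spread was not tested.

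The labels call the tissue small intestine and their extraction protocol names liver. Genes typical of colon were well above background on all 6 saline arrays: Car1, a carbonic anhydrase, had values of 7.45 to 8.38, and Slc26a3, the chloride exchanger of the colon surface, 6.23 to 7.65. Lct, the lactase of small intestine, was well above background on 1 of 3 SJW arrays and 2 of 3 control arrays, with values of -0.20 to 0.36. Other genes of small intestine were well above background on all 6 arrays. Rbp2 had 3.31 to 3.84, Fabp6 0.36 to 3.03, Sis 0.04 to 1.48 and Alpi -0.44 to 0.22. Which segment was sampled was not tested. The liver albumin gene Alb lay between -4.08 and -1.90. SJW replicate 3 stood apart in genes that mark the hindmost gut: Hoxd13 had 3.84, 3.71 and 0.09 on the SJW arrays, against 3.66, 3.83 and 4.50 on the control arrays. Hoxb13 had 3.08, 2.66 and 0.94 on the SJW arrays and 2.56, 3.16 and 2.95 on the control arrays. Scnn1g, a subunit of the colonic sodium channel, had 0.02, 0.39 and -2.23 on the SJW arrays, against 0.60, 0.88 and 1.01 on the control arrays. In whole tissue, fewer cells of a type and less RNA per cell cannot be told apart.

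Akr1b8 and Akr1b7 code for related aldo-keto reductases that reduce aldehydes, and both lie on chromosome 6. They are shown with the 250 bases before their RefSeq starts (build GRCm38.p6), because both rose with the slide as a block and the table of promoters holds both. Capitals mark GGTTCA, a variant of the half-site that nuclear receptors bind, searched on both strands.
Akr1b8 (chr6:34353896-34354145, plus strand): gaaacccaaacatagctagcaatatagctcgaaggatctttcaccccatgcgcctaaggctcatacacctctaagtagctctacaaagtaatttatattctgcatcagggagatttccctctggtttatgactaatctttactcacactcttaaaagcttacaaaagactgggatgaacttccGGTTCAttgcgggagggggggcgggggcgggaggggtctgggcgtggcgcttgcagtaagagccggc
Akr1b7 (chr6:34412112-34412361, plus strand): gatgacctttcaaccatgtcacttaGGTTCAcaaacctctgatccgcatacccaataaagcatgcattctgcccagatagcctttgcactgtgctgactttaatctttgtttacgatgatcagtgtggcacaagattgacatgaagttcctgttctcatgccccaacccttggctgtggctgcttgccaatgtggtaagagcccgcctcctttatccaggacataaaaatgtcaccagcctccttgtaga
Each of the 2 stretches holds 1 match, 67 bases before the start in Akr1b8 and 225 bases before it in Akr1b7. Of 27025 gene symbols with a promoter entry, 2723 hold the motif in the same window, as do 4 of 31 members of the NRF2 and antioxidant list (35 genes) that have an entry. A match in these letters is a description and does not show binding.

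Akr1b8 had 1.74, 1.35 and 1.41 on the SJW arrays, against 0.41, 0.58 and 0.45 on the control arrays. Every SJW value lay above every control value, with means of 1.50 ± 0.21 in SJW and 0.48 ± 0.09 in control (SD, n = 3 each). The difference was 1.02 ± 0.16 (SE), a 2.03-fold ratio, with an adjusted p of 0.0853 in the limma fit and 0.0457 with the slide as a block. Akr1b7 had 1.01, 0.72 and 1.69 on the SJW arrays, against 0.13, -0.05 and -0.14 on the control arrays. Its difference was 1.16 ± 0.19 (SE), with a limma adjusted p of 0.0901, and 0.0457 with the slide as a block. It also passed without a block when the scanner's own log ratio was used (difference 1.65, limma adjusted p 0.0357), but not with that ratio and the slide as a block (limma adjusted p 0.218). With median centring and the slide as a block its limma adjusted p was 0.358. The groups did not overlap for either gene. After AOM the SJW minus control difference was -0.34 for Akr1b8 and 0.05 for Akr1b7, and in tumors it was -0.26 for Akr1b8 and 0.04 for Akr1b7. The difference between the saline and the AOM contrast did not pass for Akr1b8 (1.36 ± 0.23, SE, limma adjusted p 0.476) or for Akr1b7 (1.11 ± 0.27, SE, limma adjusted p 0.476).

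Nr1i2, the gene of PXR, had 3.73, 2.97 and 3.54 on the SJW arrays, against 2.60, 2.87 and 3.58 on the control arrays, and the groups overlapped. Nr1i3, the gene of CAR, differed by 0.12 ± 0.18 (SE). Por, which passes electrons to all microsomal P450 enzymes, differed by 0.16 ± 0.15 (SE), and Alas1, the first enzyme of heme synthesis, by 0.19 ± 0.15 (SE). None of the 20 measured receptors and partners had groups that did not overlap, beside 8.25% of all genes with SJW above and 5.87% with SJW below.

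Of 29 P450 genes listed as targets of PXR and CAR, 21 were measured, 3 had SJW values all above the control values, 0 had them all below, and the median difference was 0.21. The 3 are 14.3% of the members, beside 8.25% of all genes. The median was 0.12 without SJW replicate 1 or SJW replicate 3, 0.10 without control replicate 2, and 0.02 with median centring. Cyp2c55, a P450 of colon that PXR ligands induce in mice, had 5.89, 4.85 and 6.62 on the SJW arrays, against 4.10, 3.74 and 4.11 on the control arrays. SJW lay above control on each slide, the difference was 1.80 ± 0.48 (SE, a 3.48-fold ratio), and the limma adjusted p was 0.162, or 0.0588 with the slide as a block. Cyp3a41a rose with the slide as a block, by 0.71 ± 0.13 (SE, limma adjusted p 0.0484). It had 0.64, 0.81 and 0.93 on the SJW arrays, against 0.04, 0.11 and 0.10 on the control arrays. Probes of the Cyp3a family can share signal between near-identical genes, so which member was measured is uncertain.

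Cyp3a11, the main inducible P450 of the 3A family in mouse liver, had 0.82, 0.15 and 1.24 on the SJW arrays, against 0.36, 0.63 and 1.15 on the control arrays. The groups overlapped and the difference was 0.02 ± 0.26 (SE). Cyp3a13, a P450 found along the gut, had 6.17, 4.83 and 5.94 on the SJW arrays, against 5.51, 5.13 and 5.58 on the control arrays, and also overlapped. Cyp2b10, a textbook CAR target, differed by -0.71 ± 0.39 (SE, limma adjusted p 0.524) and was well above background on 2 of 3 SJW arrays. Cyp2c65, a P450 of gut, was lowest on slide 2 in both groups: it had 5.28, 2.49 and 6.16 on the SJW arrays, against 3.67, 1.22 and 5.22 on the control arrays. Cyp1a1, a target of the aryl hydrocarbon receptor, had no probe that passed the filter.

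The list of glucuronosyltransferases, which attach glucuronic acid, and related genes had SJW above control on each slide in its median. The list (10 of 19 measured) had a median difference of 0.77, with 9 members above 0, and slide medians of 0.57, 0.43 and 0.99. It was 0.39 without SJW replicate 3 and 0.51 without control replicate 2. The 1 member without overlap (10%, beside 8.25% of all genes) was Ugp2 (difference 0.38). It makes UDP-glucose and does not attach glucuronic acid, so no glucuronosyltransferase of the list was without overlap. Ugt1a1, which conjugates bilirubin, had 2.59, 1.01 and 4.02 on the SJW arrays, against 1.24, 0.69 and 1.18 on the control arrays. SJW replicate 2 lay within the control range, and the difference of 1.50 ± 0.50 (SE, limma adjusted p 0.273) was 0.77 without SJW replicate 3. With the red channel alone the Ugt1a1 difference was -0.49. Carboxylesterases (14 of 20 measured) had a median of 0.44, with slide medians of 0.71, -0.11 and 0.54. That median was 0.24 without SJW replicate 1, 0.23 without SJW replicate 3 and 0.81 without SJW replicate 2. Ces2a, an intestinal esterase that splits ester drugs, had 6.20, 4.07 and 5.82 on the SJW arrays, against 3.38, 4.10 and 3.85 on the control arrays. The SJW value lay far above control on slides 1 and 3 and beside it on slide 2 (difference 1.59 ± 0.53, SE, limma adjusted p 0.275). Sulfotransferases had a median of 0.13 over 12 members, and glutathione S-transferases of 0.09 over 21. Of the sulfotransferases, 1 lay above and 3 below control without overlap (8.33% and 25%, beside 8.25% and 5.87% of all genes).

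**Figure D1:**
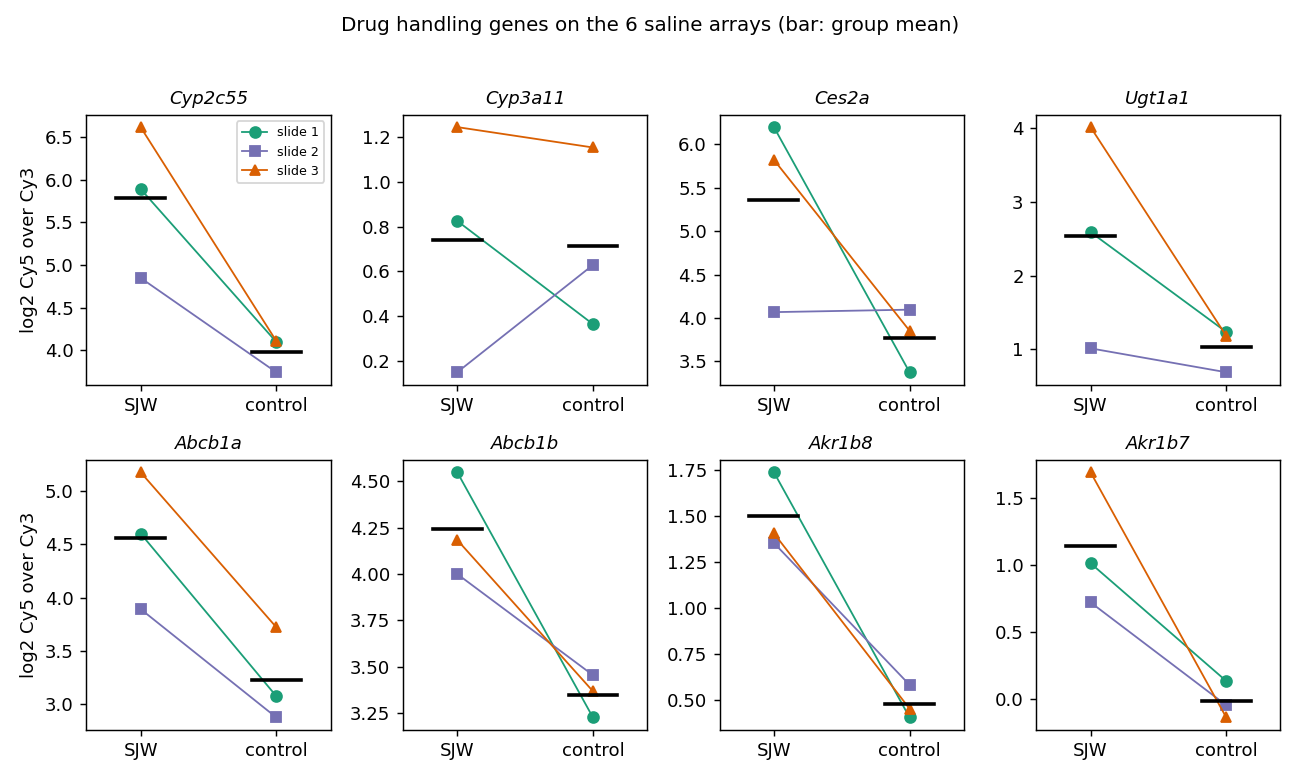
Log2 Cy5 over Cy3 of 8 drug handling genes on the 6 saline arrays, SJW at the left and control at the right of each panel, with a line joining the 2 arrays of a slide and a bar at each group mean. Each panel has its own vertical range. Akr1b8, Akr1b7, Abcb1a, Abcb1b and Cyp2c55 have all SJW points above all control points, while those of Cyp3a11 overlap.

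Among the efflux pumps Abcb1a rose with the slide as a block. Abcb1a, which codes for P-glycoprotein of the gut surface, had 4.60, 3.89 and 5.18 on the SJW arrays, against 3.08, 2.88 and 3.72 on the control arrays. SJW lay above control on every slide, by 1.33 ± 0.29 (SE) in all, a 2.52-fold ratio, with a limma adjusted p of 0.105, and 0.0462 with the slide as a block. Abcb1b, its close copy, had 4.55, 3.999 and 4.18 on the SJW arrays, against 3.23, 3.45 and 3.37 on the control arrays (difference 0.89 ± 0.32, SE, limma adjusted p 0.316). Another probe of Abcb1b differed by 0.03, and in the deposited value table the gene differed by -0.12. Abcb4, the phosphatidylcholine pump beside them, had 4.31, 3.40 and 4.04 on the SJW arrays, against 2.80, 3.30 and 2.97 on the control arrays. These genes are near copies, so their probes can share signal. In the list of drug transporters 23 of 26 were measured, 4 had all SJW values above control and 2 had them below (17.4% and 8.7%, beside 8.25% and 5.87% of all genes), and the median difference was 0.22. The median was 0.04 without SJW replicate 3 and 0.48 without SJW replicate 2. The bile salt pump Abcb11 (difference 0.78 ± 0.23, SE) was the other member with SJW above control. Abcc2, a pump of conjugates, was not well above background in either group and has no fold. Abcc3 differed by 0.30 ± 0.25 (SE).

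Of 35 genes of the NRF2 and antioxidant response, which NRF2 switches on under oxidative stress, 33 were measured with a median difference of 0.12. The 4 whose groups did not overlap were Akr1b7, Akr1b8, Tkt (difference 0.33 ± 0.14, SE) and Gsr (0.29 ± 0.13, SE), all with SJW above control, which is 12.1% of the members beside 8.25% of all genes. With median centring 16 of 33 lay above control without overlap, beside 12.7% of all genes, and the median was 0.61. That centring raised lists of other kinds too. The proliferation list went from 2 to 9 of 29 members above control without overlap, and the unfolded protein response list from 1 to 6 of 18. The MHC class II list stayed below 0, with a median of -0.53. The median was 0.26 without SJW replicate 2. Nqo1, a quinone reductase, had 1.71, 0.91 and 2.10 on the SJW arrays, against 0.95, 0.23 and 0.78 on the control arrays. SJW was above control on each slide, although SJW replicate 2 lay below control replicate 1 (limma adjusted p 0.347). Prdx6, a peroxiredoxin, pointed the other way with 2.73, 2.31 and 1.55 on the SJW arrays and 2.93, 3.59 and 2.71 on the control arrays. Other probes of Prdx6 differed by -0.93 and 0.14. Hmox1, Gclm and Txnrd1 differed by 0.07, 0.12 and -0.10.

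Genes of sterol synthesis and uptake, which the factor SREBP2 controls, lay higher in SJW as a group. All 24 were measured, 23 had a difference above 0, and 8 had all SJW values above control, a share of 33.3% beside 8.25% of all genes. The median difference was 0.38, with slide medians of 0.14, 0.76 and 0.32. Insig1, which holds SREBP back when sterol is plentiful, had 1.49, 2.18 and 1.41 on the SJW arrays, against 1.00, 0.87 and 0.54 on the control arrays. Its difference of 0.89 ± 0.25 (SE) had a limma adjusted p of 0.2. Idi1, Msmo1, Stard4, Tm7sf2, Hsd17b7 and Mvk were also among the members without overlap. SJW replicate 2 was the highest array for Insig1, Fdps and Sqle. Without SJW replicate 2 the median was 0.23. With median centring, which raised lists of other kinds too, the count was 14 of 24 and the median was 0.77. There 12.7% of all genes lay above control without overlap. After AOM the list's median difference was -0.01, and in tumors -0.09.

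Of 28 genes of fatty acid oxidation and ketogenesis 27 were measured, 24 had a difference above 0, and the median was 0.27. Of these, 3 lay above control without overlap, 11.1% beside 8.25% of all genes. The slide medians were 0.30, -0.01 and 0.40. The median was 0.17 without SJW replicate 3. With median centring, which raised lists of other kinds too, 16 of 27 lay above control without overlap, and the median was 0.71. The share of all genes there was 12.7%. With the scanner log ratio and with the red channel alone 2 of 27 did (7.41%, beside 4.27% and 3.69% of all genes). Decr1, a reductase of the mitochondrial pathway, had 0.80, 0.69 and 0.55 on the SJW arrays, against 0.32, 0.08 and 0.21 on the control arrays (difference 0.47 ± 0.16, SE). Elovl6, which lengthens fatty acids, was named after its values were seen: it rose with the slide as a block by 0.93 ± 0.16 (SE, limma adjusted p 0.0457). It had 1.20, 0.67 and 1.61 on the SJW arrays, against 0.24, 0.10 and 0.35 on the control arrays.

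**Figure D2:**
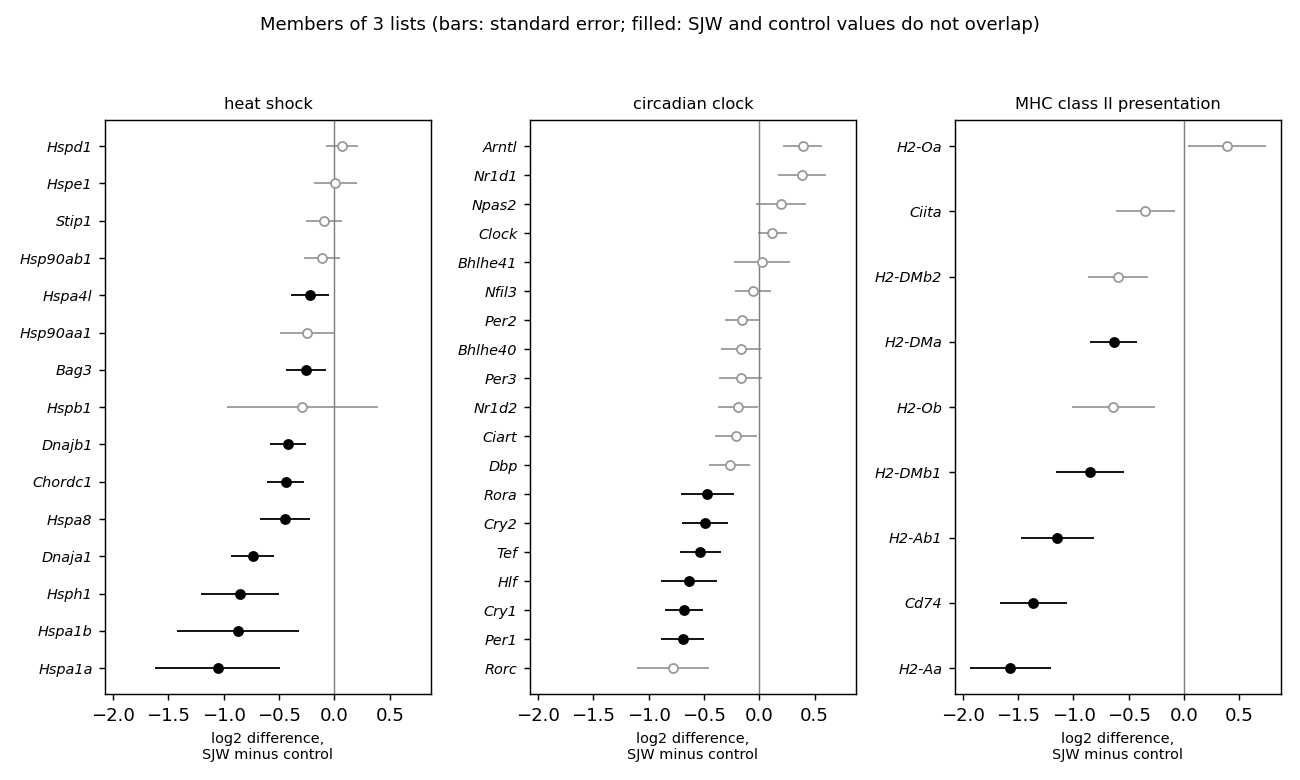
Log2 difference, SJW minus control, with its standard error, for the measured members of 3 gene lists after saline, with filled points for genes whose SJW and control values did not overlap. As filled points, 9 of 15 heat shock genes, 6 of 19 clock genes and 5 of 9 MHC class II genes lie left of 0, and with median centring in place of loess 1 of 15 heat shock genes does. Of all genes, 5.87% had SJW below control without overlap (5.3% with median centring).

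Heat shock genes, which code for chaperones that refold damaged proteins, had lower medians in SJW on each slide after loess, a direction that turned with median centring in its place. All 15 were measured, 9 had all SJW values below control (60%, beside 5.87% of all genes) and 0 above. The median difference was -0.29, with slide medians of -0.23, -0.32 and -0.41, and it was -0.48 without SJW replicate 1. Dnaja1, an HSP40 co-chaperone, had -1.25, -1.50 and -1.32 on the SJW arrays, against -0.58, -0.57 and -0.72 on the control arrays. The values of each group lay close together, and the difference was -0.74 ± 0.19 (SE, limma adjusted p 0.156). Other probes of Dnaja1 differed by -0.31 and -0.26. Hspa1a, the inducible HSP70, had -1.87, -1.88 and -1.86 on the SJW arrays, against -0.95, -0.79 and -0.70 on the control arrays. Its groups lay far apart, but the spread taken from all 18 arrays was wide and the difference was -1.06 ± 0.56 (SE). Hspa1b, its close copy, differed by -0.87 ± 0.55 (SE), and the 2 copies can share signal. Dnajb1 (-0.42 ± 0.16, SE), Chordc1 (-0.44 ± 0.17, SE) and Hsph1 (-0.86 ± 0.35, SE) were also without overlap. Hspd1 and Hspe1, the mitochondrial chaperonins, differed by 0.07 and 0.01. When arrays were centred on their medians without loess, the list's median turned to 0.15. There 1 of 15 members had all SJW values below control (6.67%, beside 5.3% of all genes). In the other ratios tried, 3 of 8 members (deposited value table, beside 4.23% of all genes) to 8 of 15 (no background correction, beside 3.33%) did. After AOM, the median of the SJW minus control differences was -0.44, and in tumors it was 0.22.

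Clock genes, which drive daily rhythm in most cells, had 6 of 19 members with all SJW values below control and 0 above. The 6 are 31.6% of the members, beside 5.87% of all genes, and the list's median difference was -0.19. Per1, a repressor of the clock, had -0.74, -1.20 and -1.33 on the SJW arrays, against -0.11, -0.52 and -0.56 on the control arrays (difference -0.69 ± 0.19, SE, limma adjusted p 0.192). Cry1, its partner, had -0.50, -1.29 and -0.88 on the SJW arrays, against -0.28, -0.12 and -0.24 on the control arrays (difference -0.68 ± 0.17, SE, limma adjusted p 0.142). For both genes every SJW value lay below every control value. Another probe of Cry1 differed by -0.31. Tef (-0.53 ± 0.19, SE), Hlf, Cry2 and Rora were the other members without overlap. Arntl, the activator known as BMAL1, had 0.55, 0.32 and 0.31 on the SJW arrays, against -0.30, 0.47 and -0.16 on the control arrays, and overlapped. Dbp, an output gene of the clock, had 0.16, 0.34 and 0.02 on the SJW arrays, against 0.59, 0.34 and 0.39 on the control arrays. With median centring the list's median was -0.05 and 3 members lay below control without overlap, 15.8% beside 5.3% of all genes. The sources used here do not state the hour at which tissue was taken. After AOM, Cry1 differed by -0.51 and Per1 by 0.11.

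Promoter stretches of 100 bases are shown for Per1, Cry1, Hspa1a and Dnaja1, since these genes lead the 2 lists and the letters of known response elements can be read in them. They come from RefSeq on GRCm38.p6 and lie before the start. Capitals mark CACGTG, the E-box that the clock activators bind, in the first 2, and GAANNTTC, a core of the heat shock element, in the others.
Per1 (chr11:69098736-69098835, plus strand): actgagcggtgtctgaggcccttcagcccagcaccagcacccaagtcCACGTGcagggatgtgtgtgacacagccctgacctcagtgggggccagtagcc
Cry1 (chr10:85185062-85185161, minus strand): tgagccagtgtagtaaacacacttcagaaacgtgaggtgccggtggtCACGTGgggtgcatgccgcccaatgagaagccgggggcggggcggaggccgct
Hspa1a (chr17:34972207-34972306, minus strand): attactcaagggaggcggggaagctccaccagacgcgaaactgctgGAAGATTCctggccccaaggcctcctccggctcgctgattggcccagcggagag
Dnaja1 (chr4:40722298-40722397, plus strand): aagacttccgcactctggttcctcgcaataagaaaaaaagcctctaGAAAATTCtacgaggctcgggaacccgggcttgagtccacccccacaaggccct
In the 250 bases before the start, on both strands, CACGTG was found in 5 of 16 clock genes with an entry and in 6.86% of all 27025 symbols. GAANNTTC was found in 6 of 12 heat shock genes with an entry and in 7.73% of all symbols. Some genes have several entries in the table, and a gene was counted if any entry held the motif.

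Genes of antigen presentation by MHC class II, which shows peptides to helper T cells, lay lower in SJW, most of all on slides 2 and 3. Of 9 measured members, 8 had a difference below 0 and 5 had all SJW values below control (55.6%, beside 5.87% of all genes). The median difference was -0.64, with slide medians of -0.01, -0.98 and -0.95. Cd74, the invariant chain, had -1.58, -1.93 and -1.81 on the SJW arrays, against -0.68, 0.11 and -0.67 on the control arrays (difference -1.36 ± 0.31, SE, limma adjusted p 0.106). H2-Aa, a class II alpha chain, had -1.53, -1.90 and -1.97 on the SJW arrays, against -0.02, 0.35 and -1.02 on the control arrays (difference -1.57 ± 0.37, SE, limma adjusted p 0.113). Control replicate 2 was the highest array for both. H2-Ab1 differed by -1.15 ± 0.33 (SE), with H2-DMa and H2-DMb1, which load peptide, as the other members without overlap. H2-Oa was the 1 member with a difference above 0, at 0.39 ± 0.35 (SE). The 100 bases around the CTGATTGG motif of H2-Aa, the Y box of class II promoters, are shown because this gene has the widest difference of the list, with the motif in capitals (RefSeq, GRCm38.p6).
H2-Aa (chr17:34287824-34287923, minus strand): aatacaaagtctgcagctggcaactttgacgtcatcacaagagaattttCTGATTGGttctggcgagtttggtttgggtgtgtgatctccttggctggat
That motif was found in 3 of 7 class II genes with an entry and in 4.43% of all symbols.

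The B and plasma cell, macrophage and dendritic cell, and T and NK cell lists also had medians below 0. The B cell and macrophage lists include cells that carry class II, and the part of such cells in these differences was not tested. The B and plasma cell list (10 of 12 measured) had a median difference of -0.61, with slide medians of 0.30, -1.28 and -0.86. Ms4a1, the B cell surface protein CD20, had 2.08, 1.21 and 1.23 on the SJW arrays, against 1.14, 3.38 and 3.17 on the control arrays. Mean values over the B and plasma cell list were 0.67 to 1.01 on SJW arrays and 0.59 to 1.66 on control arrays. The macrophage and dendritic cell list (13 of 14 measured) had a median of -0.19, with 12 members below 0 and list means of -0.61 to -0.48 on SJW arrays and -0.57 to -0.14 on control arrays. The T and NK cell list (11 of 14 measured) had a median of -0.25.

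Interferon-stimulated genes differed widely between arrays of the SJW group. The list of 33 measured members had a median difference of -0.41 and slide medians of -0.87, -0.71 and 0.58. Its mean value was -0.41, -0.08 and 1.54 on the SJW arrays, against 0.69, 0.59 and 0.95 on the control arrays, so SJW replicates 1 and 2 lay below all controls and SJW replicate 3 above them. Ifit1 had 0.04, 0.65 and 3.63 on the SJW arrays, against 2.49, 2.06 and 2.71 on the control arrays. The list's median was -0.82 without SJW replicate 3 and -0.02 without SJW replicate 1. Gbp4, a guanylate-binding protein, was the 1 member without overlap (3.03%, beside 5.87% of all genes with SJW below control). It was not well above background on any SJW array and was well above it on 2 of 3 control arrays. The bound from group means was 1.60-fold lower in SJW, with a limma adjusted p of 0.309. Under the alternatives its difference ran from -1.02 to -0.23, so the bound is not a minimum over settings. The list of inflammatory cytokines and effectors (31 of 34 measured) had a median difference of -0.20, with 7 members above 0. All SJW values lay above control for 2 members and below it for 5 (6.45% and 16.1%, beside 8.25% and 5.87% of all genes). The 5 below were Il1b, Il33, Ccl2, Nfkbia and Saa3, with differences of -0.68 to -0.20. Icam1, an adhesion molecule for leukocytes, had -1.75, -1.31 and -1.98 on the SJW arrays, against -1.13, -0.50 and -1.36 on the control arrays (difference -0.68 ± 0.22, SE, limma adjusted p 0.254). SJW lay below control on each slide, but the groups overlapped. The 2 members above were Il1a and Il18. Il1a had 2.10, 2.07 and 2.01 on the SJW arrays, against 1.03, 0.29 and 1.57 on the control arrays, but another of its probes differed by -0.13. Il18, an epithelial cytokine, had 3.60, 3.57 and 3.96 on the SJW arrays, against 2.80, 3.23 and 3.03 on the control arrays (difference 0.69 ± 0.18, SE, limma adjusted p 0.165). Tnf and Il1b differed by 0.02 and -0.30. Il6 and Ptgs2 were not well above background in either group. Lcn2 differed by -0.53 ± 0.64 (SE).

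**Figure D3:**
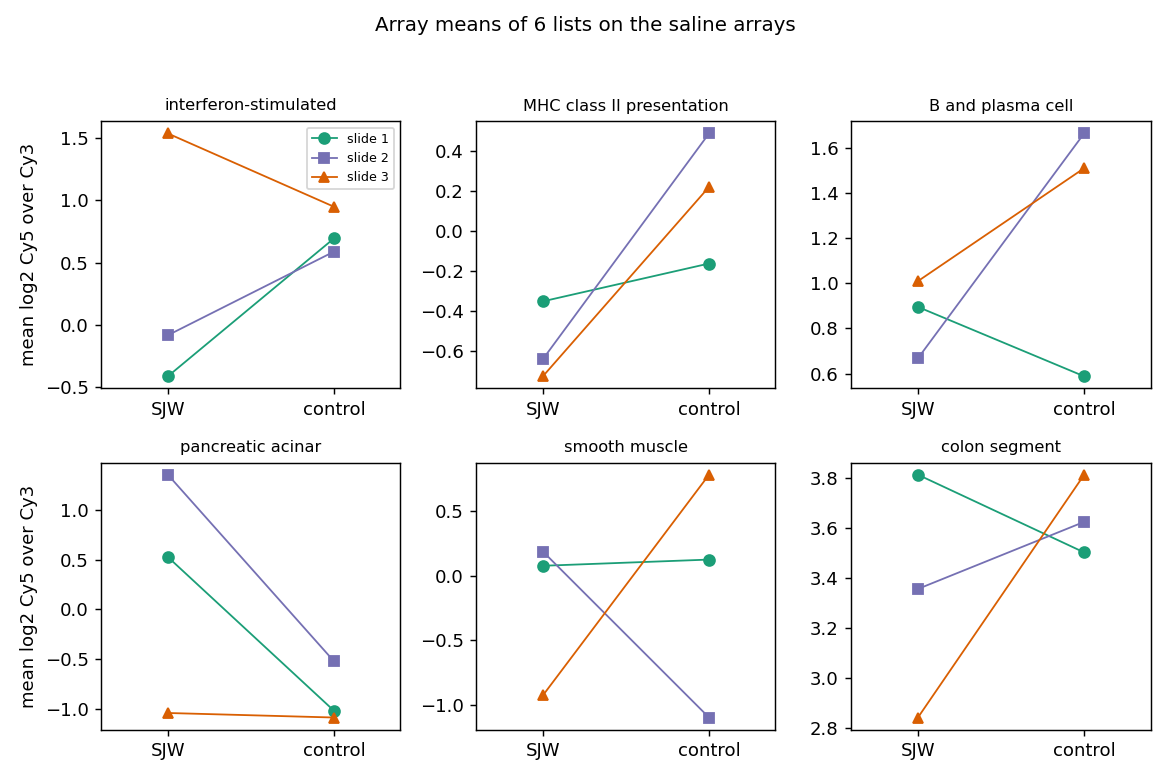
Mean log2 Cy5 over Cy3 of 6 gene lists on the saline arrays, SJW at the left and control at the right, with a line joining the 2 arrays of a slide and a vertical range of its own in each panel. SJW replicate 3 is the highest array for the interferon list (1.54) and the lowest for the colon list (2.84).

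Other lists marked what cells each sample held. The goblet cell list, of mucus-secreting cells, was measured in full (14 genes), with 12 differences above 0, 3 members above control without overlap (21.4%, beside 8.25% of all genes) and a median of 0.46. Its median was 0.82 with median centring and 0.18 with the scanner log ratio, where 8 of 14 differences were above 0. With the deposited value table it was 0.03, with 4 of 8 above 0. Zg16, a goblet cell lectin, had 6.51, 6.23 and 6.82 on the SJW arrays, against 5.80, 5.72 and 5.90 on the control arrays. Muc2, the main gut mucin, had 8.31, 7.08 and 8.40 on the SJW arrays, against 7.90, 6.94 and 8.40 on the control arrays, and overlapped. Lgr5, a stem cell marker of the crypt and a Wnt target, had 1.85, 1.00 and 2.00 on the SJW arrays, against 0.55, 0.27 and 0.88 on the control arrays (difference 1.05 ± 0.36, SE, limma adjusted p 0.302). Axin2, another Wnt target, differed by 0.57 ± 0.28 (SE), and Myc and Mki67 by -0.14 and 0.21. Other probes of Myc differed by 0.17 and 0.12. The Wnt target list (20 of 21 measured) had a median of -0.09, with 8 members above 0. Of its members, 2 lay above control without overlap (Lgr5 and Ephb3) and 3 below (Nkd1, Sp5 and Tcf7). These are 10% and 15%, beside 8.25% and 5.87% of all genes. Tcf7, a transcription factor of Wnt signalling, differed by -0.80 ± 0.29 (SE), and Dkk3 by -0.86 ± 0.32 (SE) with overlap. The enteroendocrine list, of hormone-secreting cells, was measured in full (20 genes), with a median of 0.29, 13 differences above 0 and slide medians of 0.44, -0.02 and 0.25. Without overlap, 4 members lay above control (Chgb, Gip, Pax4 and Pax6) and 1 below (Tac1, difference -0.56 ± 0.26, SE). The shares are 20% and 5%, beside 8.25% and 5.87% of all genes. The list's median was 0.13 without SJW replicate 1. Pax4, a factor of these cells, rose with the slide as a block (difference 2.43 ± 0.43, SE, limma adjusted p 0.0462) and was named after its values were seen. The hormone gene Gcg had 5.55, 4.38 and 5.76 on the SJW arrays, against 3.81, 3.76 and 4.73 on the control arrays, and overlapped.

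Pancreatic and muscle markers differed between single arrays. The pancreatic acinar list (11 of 15 measured) had means of 0.53, 1.36 and -1.04 on the SJW arrays, against -1.02, -0.52 and -1.09 on the control arrays. The smooth muscle list (13 genes) had means of 0.08, 0.19 and -0.92 on the SJW arrays, against 0.12, -1.09 and 0.78 on the control arrays. For both lists the arrays of one group lay far apart. Their part in the differences above was not tested.

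**Figure D4:**
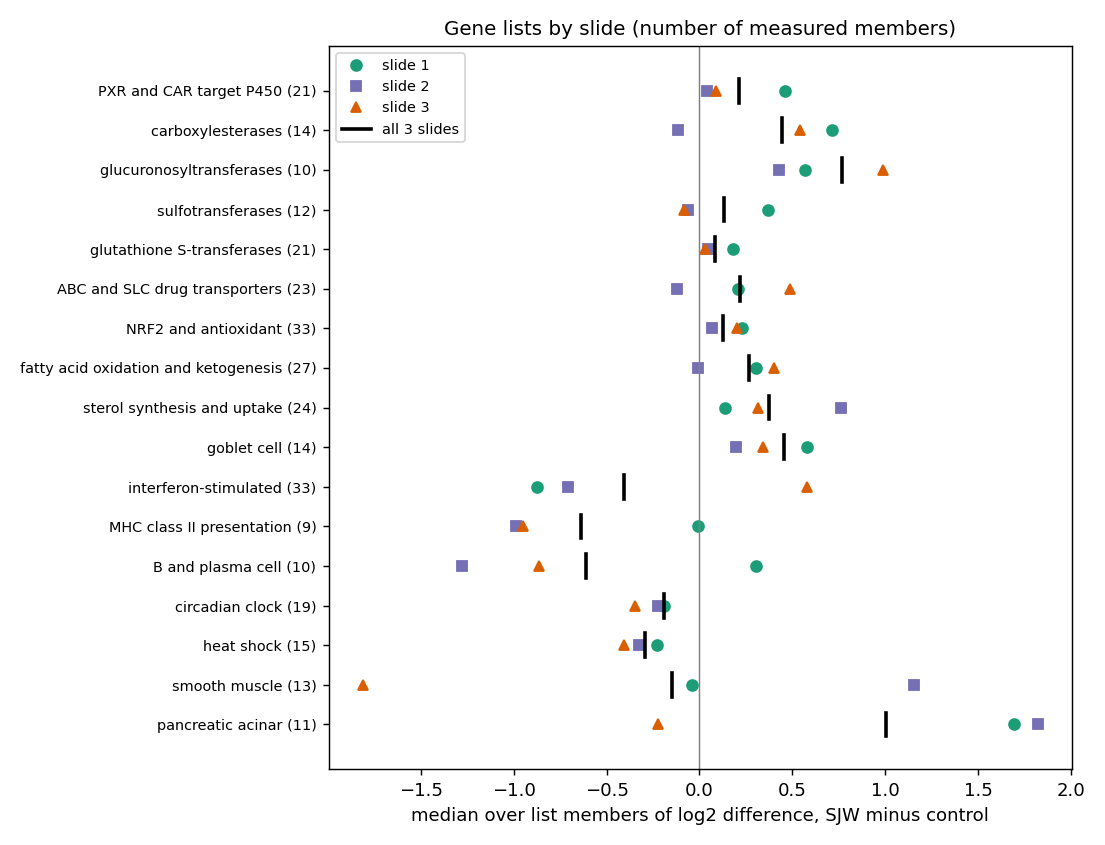
Median log2 difference, SJW minus control, over the measured members of 17 gene lists, with 1 point for each slide and a bar for the median of the 3-slide difference. After loess the heat shock and clock points lie left of 0 on all 3 slides (the heat shock median turned to 0.15 with median centring), and the sterol and glucuronosyltransferase points right of 0, while the interferon, smooth muscle and pancreatic lists have slides on both sides.

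The 10 named genes with the smallest p and SJW above control were Olfr141, Akr1b8, Pirt, Akr1b7, Fmo9, Lmx1b, Klra3, Ifna2, Cyp3a41a and Vmn1r228, with differences of 0.71 to 1.42. Olfr141, an odorant receptor, had 1.28, 1.62 and 1.49 on the SJW arrays, against 0.20, 0.08 and 0.37 on the control arrays. Pirt, a membrane protein of sensory neurons, had 2.23, 1.92 and 2.39 on the SJW arrays, against 1.16, 0.15 and 0.96 on the control arrays. Other probes of Klra3 differed by 0.21 and -0.10. Genes fell into 5 equal classes of brightness, and 66 of the 71 genes that passed with the slide as a block were in the 3 dimmest. Of the 71, 38 had a gene symbol and 8 were odorant or vomeronasal receptors. Over 582 odorant receptor genes the median difference was 0.14, with array medians of 0.39, 0.29 and 0.35 on the SJW arrays, against 0.28, 0.02 and 0.30 on the control arrays. Control replicate 2 was close to 0 in the dimmest class, at -0.002, where the other 5 arrays had 0.14 to 0.22.

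The 10 with the smallest p and SJW below control were Tppp3, P4ha1, Cd74, Plekho2, H2-Aa, Mcl1, Cndp2, Cry1, Slc7a9 and Clec2l. Tppp3 fell with the slide as a block: it had -1.18, -1.25 and -2.02 on the SJW arrays, against -0.44, 0.10 and -0.28 on the control arrays (difference -1.28 ± 0.20, SE, limma adjusted p 0.0457). Plekho2 fell as well (difference -0.90 ± 0.15, SE, limma adjusted p 0.0457), and another of its probes differed by -0.35. P4ha1, a prolyl hydroxylase of collagen, had -0.94, -0.94 and -1.24 on the SJW arrays, against -0.41, -0.37 and -0.48 on the control arrays (difference -0.62 ± 0.13, SE, limma adjusted p 0.105). Mcl1, an inhibitor of cell death, had 1.25, 1.02 and 0.68 on the SJW arrays, against 1.59, 1.71 and 1.48 on the control arrays.

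**Figure D5:**
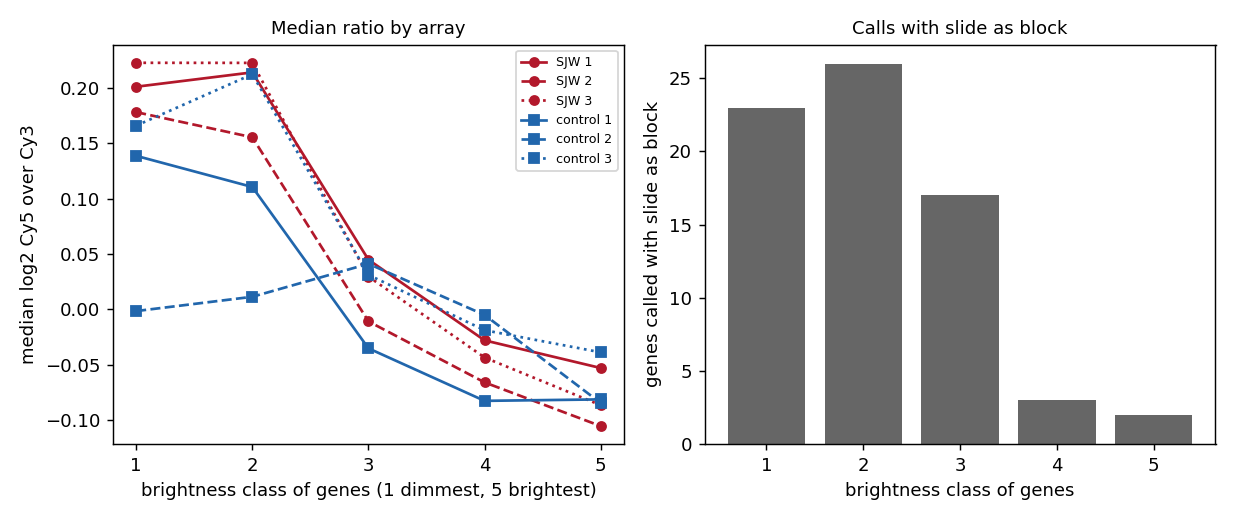
Left, the median log2 Cy5 over Cy3 of genes in 5 classes of brightness on each saline array, and right, the number of genes that passed with the slide as a block in each class. Control replicate 2 lies near 0 in the 2 dimmest classes, which hold 49 of the 71 genes.

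The diet difference after saline was set against the same contrast after AOM and in tumors, which used other arrays. With limma, 0 genes differed between the saline and the AOM contrast at an adjusted p under 0.05 (2435 at an unadjusted p under 0.05, 9.34%), and 0 between saline and tumors (2536 unadjusted, 9.73%). Neither of the other contrasts gave a gene at an adjusted p under 0.05 by itself. Abcb1a differed by -0.27 after AOM and by -0.23 in tumors. The difference between contrasts was 1.60 ± 0.41 for saline minus AOM (SE, limma adjusted p 0.476). Cyp2c55 differed by 0.69 after AOM and 0.26 in tumors, and Ces2a by 0.18 after AOM and -0.69 in tumors. Cd74 differed by 0.67 after AOM and 0.29 in tumors, with a saline minus AOM difference of -2.04 ± 0.43 (SE, limma adjusted p 0.476). Of the sterol genes, Insig1 differed by 0.08 after AOM and -0.07 in tumors.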

How the data were processed

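Samples were grouped by their labels: 6 saline arrays (3 SJW, 3 control) of 18. The members and lists were chosen with earlier results of these data known. Per the file headers, arrays were read with Agilent Feature Extraction 10.10.1.1 under its protocol GE2_1010_Sep10, with mm9 as the annotation's build. Each spot's deposited intensity is a median over its pixels, with a median for the local background. The scanner software also wrote a deposited log10 ratio of Cy5 to Cy3, corrected for background and dye, per the file headers. The deposited log2 value table (35491 entries) was set against the scanner ratios: slopes were 1.00, r at least 0.996, so scale and direction are settled. Its columns are not centred: the medians for replicates 1 to 3 were 0.228, 0.148 and 0.148 (SJW) and 0.160, 0.207 and 0.152 (control). Its choice of probes is not explained in the sources used here.

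Median signals were corrected with normexp (offset 50) and loess normalized within arrays with control spots at weight 0, in R 4.3.3 with limma 3.58.1. Population outliers were left out and spots of a probe averaged. Probes entered the fit where the scanner marked the Cy5 signal as well above background on all 3 arrays of at least 1 of the 6 groups (34073 of 41174), and the brightest probe stood for a gene (26067 genes, 16793 with a symbol). The fit used 18 arrays (12 residual degrees of freedom, 9 with the slide as a block), with Benjamini-Hochberg adjustment over all genes. Their number limits the precision. On simulated data of 26067 genes, 66 of 100 genes changed by 1 (log2) and 93 of 100 changed by 2 were recovered, with 4 false calls. That recovery may not hold on the real arrays. Without a block Olfr1445, Prr11 and Dgki did not pass there, with differences of 2.85 to 2.88 and limma adjusted p of 0.105 to 0.156. Slides pair the arrays: the same-numbered saline arrays share a slide in the file headers. Their deviations from group means correlated at 0.169 to 0.411, and those of other pairs at -0.480 to 0.085. Deviations within a group sum to 0, so positive same-slide values push the other pairs down. The low values of other pairs are thus no separate evidence of pairing.

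The rule named the 12 largest differences in each direction among genes that passed without overlap (none did), so also the 10 genes with the smallest p in each direction, the 3 smallest p of each pathway list, and 32 fixed genes (31 measured). Other genes in the text were chosen after their values were seen. The bound of Gbp4 sets the mean of the brighter group against, per array, the higher of the lowest signal well above background and the dim probe's own, after loess and scaling of channels, and is open to dye bias. Alternatives were another normalization, background correction, ratio, filter, probe rule, block, set of arrays, and leaving out each array. Promoters are RefSeq's, on GRCm38.p6.
Nothing in the labels says that samples came from separate animals beyond the term biological replicates, so p-values measure the spread between these samples. Some genes of the lists count in them but are not reported here by name.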

Additional observations from a re-analysis of the deposited data

Results flagged for a closer look

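In 6 of 48 lists every slide pointed one way after saline and the opposite way after AOM. Some of these slide medians lay close to 0. The xenobiotic receptors and partners had 0.002 on slide 3 after saline and -0.002 on slide 1 after AOM. The proliferation list had 0.003 on slide 3 after saline, and the glucuronosyltransferases -0.007 on slide 2 after AOM. The difference was not tested for any of these lists. The glucuronosyltransferases had a median difference, SJW minus control, of 0.766 after saline and -0.179 after AOM. The goblet cell list had 0.456 after saline and -0.333 after AOM, and 0.03 after saline with the deposited value table. The NRF2 and antioxidant list had 0.125 after saline and -0.158 after AOM. The xenobiotic receptors and partners had 0.0859 after saline and -0.0737 after AOM. The proliferation list had 0.0463 after saline and -0.164 after AOM. The hepatocyte list had -0.184 after saline and 0.0640 after AOM.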

How the results depend on the processing

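Of 2087 values of named genes under the alternatives, 1971 kept their direction and side of the threshold. Another 48 passed it where the fit above did not, and 68 changed sign without having been called. The fit above called 0 genes, so no called value could weaken or reverse. The count of genes after saline, 0 in the fit above, was 71 with the replicate block (slide), 2 with the scanner log ratio, 2 with the deposited value table, and 0 to 291 when each array was left out (204 without SJW replicate 1, 291 without control replicate 3). The saline minus AOM count was 0 to 2 and the saline minus tumor count 0 to 35 when each array was left out. With the slide as a block the 71 genes became 150 with median centring in place of loess, 114 with a filter on the 2 saline groups, 1 with the scanner log ratio and 1 with the deposited value table. They became 0 with no background correction, with no filter, with the red channel alone, with the mean of a gene's probes, with the 6 saline arrays and with the 12 non-tumor arrays, and 0 to 162 when each array was left out; combinations with the block were chosen after seeing the data, and the cause was not tested. Genes without overlap numbered 3310 above and 1381 below control with median centring, and 961 above and 1066 below with the red channel alone, beside 2151 and 1529. Among 1008 list medians under the alternatives, 120 moved by more than the spread.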
